A study of Bos taurus with 15 samples.

Results

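FCGRT (ENSBTAG00000013926), PIGR (ENSBTAG00000019798) and JCHAIN (ENSBTAG00000018531) are 3 genes of antibody transport, and they were taken by symbol from the 27270 genes listed for these cattle libraries. FCGRT encodes the heavy chain of the neonatal Fc receptor, which pairs with B2M and carries IgG across and back out of cells. PIGR encodes the polymeric immunoglobulin receptor, which moves polymeric IgA and IgM through epithelial cells into the lumen, and JCHAIN encodes the joining chain that antibody-secreting cells build into those polymers. A calf receives its first antibodies from colostrum and makes its own mucosal IgA later.

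Single-cell RNA was measured by droplet 3' sequencing in 15 libraries from Holstein cattle, 1 for each tissue and stage. The 11 newborn (NB) libraries came from 3 calves and covered liver and salivary gland, 3 stomachs (omasum, reticulum, abomasum), the large intestine as rectum, cecum and colon, and the small intestine as ileum, duodenum and jejunum, and the calf behind each library is not named in the sources used here. The 4 adult (AD) libraries were duodenum, jejunum, cecum and colon from 1 lactating cow, with no treatment at either stage. The outer muscle layers were removed from the gut tissues of both stages. NB gut pieces passed through EDTA and trypsin before enzyme digestion, AD duodenum and cecum were digested with a lamina propria kit, and AD jejunum and colon with a multi-tissue kit. Stage, animal and dissociation therefore changed together and cannot be told apart. With 1 library per tissue and stage no test between stages was possible within a tissue.

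Of 172405 deposited barcodes 119798 passed the filters of the study and a doublet filter. Deposited libraries held from 17707625 to 129458578 UMIs (unique molecular identifiers, each a counted RNA molecule), and kept barcodes had medians of 3520 to 8790 UMIs per library. A barcode was assigned by its surface marker. EPCAM barcodes had an EPCAM UMI (epithelium) and none of PECAM1 or PTPRC, and the PECAM1 (endothelium) and PTPRC (leukocyte) barcodes were defined in the same way. They numbered 23096, 9220 and 44270, a further 35391 barcodes had none of these markers, and 7821 had several. Kept barcodes shared between a pair of libraries were at most 0.512% of the smaller library. Levels are UMIs summed over the barcodes of a class per 1000000 UMIs of that class (CPM). The 95% intervals are exact Poisson intervals for CPM and Clopper-Pearson intervals for shares of barcodes, and both cover counting error only. In summed barcodes, fewer cells of a type and less RNA per cell cannot be told apart.

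Some classes went against their names, and their values are given with that limit. Of the 28 EPCAM barcodes of AD duodenum 14.3% had a UMI of the epithelial keratin KRT8, against 79.4% to 88.2% in the other AD gut libraries. In those 28 barcodes the 7 other epithelial markers summed to 216 CPM, against 5522 to 9845 CPM in the other AD EPCAM barcodes, and the 4 plasma cell markers were found in 64.3% of them. Among the AD PECAM1 barcodes, the endothelial cadherin CDH5 was detected in 0.781% of duodenum, 0% of jejunum (0 of 88 barcodes, where 3 counts would give 3.41%), 28.6% of cecum and 42.9% of colon barcodes, against 53.7% to 79.2% in the NB gut, reticulum, omasum and abomasum libraries. The plasma cell markers summed to between 1474 and 3229 CPM in the AD PECAM1 barcodes and to between 99.7 and 260 CPM in the NB ones. In NB liver CDH5 was in 18.5% of PECAM1 barcodes. EPCAM barcodes of NB reticulum and omasum carried KRT5, a keratin of stratified epithelium, in 99.7% and 99.6%. The part of these mixed barcodes in the values below was not tested except where subsets are given.

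FCGRT was detected in every library and in all 3 classes, and over classes of 20 or more barcodes its level ran from 51.6 to 1067 CPM. PECAM1 barcodes held the highest FCGRT level in 9 of 15 libraries, and in 7 of these their interval lay above those of the other classes. PTPRC barcodes were highest in 4 libraries (3 with separate intervals) and EPCAM barcodes in 2 (1 with separate intervals).

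In the NB EPCAM barcodes FCGRT was lowest in the forestomach, with 64.6 CPM (62.3 to 66.9) in reticulum and 68.1 CPM (66.2 to 70.1) in omasum. It was 244 CPM (240 to 248) in abomasum. In the small intestine it was 557 CPM (550 to 564) in duodenum, 518 CPM (506 to 530) in jejunum and 488 CPM (471 to 506) in ileum. These 3 values did not overlap, although the upper bound of ileum reached almost to the lower bound of jejunum. In the large intestine it was 375 CPM (357 to 393) in cecum, 414 CPM (402 to 427) in colon and 343 CPM (331 to 355) in rectum. Liver EPCAM barcodes had the highest value, 723 CPM (668 to 781), in 141 barcodes, and salivary gland had 280 CPM (210 to 367) in 31. Reticulum and omasum overlapped, and the wide interval of salivary gland overlapped those of NB abomasum, rectum and cecum. The forestomach values stood apart from all other NB tissues.

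Depth was similar in these barcodes, with medians of 11838 UMIs in reticulum and 10300 in omasum against 12495 in NB duodenum and 11938 in NB jejunum. After each barcode was thinned to 2000 UMIs, 12.2% of reticulum and 12.2% of omasum EPCAM barcodes retained an FCGRT UMI, against 57.2% in NB duodenum and 60.5% in NB jejunum. Before thinning the shares were 48.6%, 48.3%, 86.4% and 89.2%. T cell barcodes (CD3E without CD14, CSF1R or CD163, PTPRC class) had an FCGRT UMI in between 3.45% and 24.1% after thinning across the NB libraries that held them, so the forestomach shares were within that range. B2M, the light chain of the receptor, was low in the same barcodes, with 165 CPM in reticulum and 126 CPM in omasum against 2178 CPM in NB duodenum and 3997 CPM in NB jejunum. Both chains were thus at their lowest EPCAM levels in the stratified epithelium of the forestomach.

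Within the NB gut the FCGRT level differed between marked epithelial subsets. In jejunum the barcodes with FABP2, a fatty acid binding protein of enterocytes, had 576 CPM (561 to 592), and those with SPINK4, a goblet cell gene, had 303 CPM (285 to 321). In ileum the same subsets had 760 CPM (725 to 797) and 451 CPM (426 to 476), and in duodenum 564 CPM (556 to 572) and 469 CPM (453 to 487). FABP2 barcodes were thus higher than SPINK4 barcodes in these 3 tissues, whereas in colon 386 CPM (358 to 416) and 419 CPM (403 to 435) overlapped. A barcode could belong to both subsets.

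In the NB PECAM1 barcodes the FCGRT range was narrower. The level was 345 CPM (315 to 376) in reticulum and 427 CPM (387 to 470) in omasum, 742 CPM (722 to 762) in abomasum, and between 540 CPM (520 to 559) in cecum and 738 CPM (725 to 752) in jejunum in the intestine. Liver had 670 CPM (620 to 722), and salivary gland had the lowest value, 310 CPM (208 to 445) in 22 barcodes. The barcodes that also carried CDH5 had similar values, from 350 CPM in reticulum to 757 CPM in abomasum. The lymphatic subset with PROX1 ranged from 536 CPM (471 to 607) in rectum to 881 CPM (798 to 970) in ileum. In NB ileum the lymphatic subset lay above the CDH5 subset (709 CPM, 678 to 742), whereas in duodenum, with 610 CPM (561 to 663) and 630 CPM (611 to 649), they overlapped.

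The widest range of FCGRT was among the leukocytes. PTPRC barcodes had 1067 CPM (1050 to 1084) in NB jejunum, 878 CPM (851 to 905) in NB duodenum, 552 CPM (545 to 560) in NB liver, 480 CPM (470 to 490) in NB cecum and 451 CPM (418 to 486) in NB abomasum. They had 300 CPM (290 to 310) in NB rectum, 158 CPM (150 to 166) in NB colon, 143 CPM (137 to 149) in NB ileum and 101 CPM (95.1 to 106) in NB salivary gland. NB reticulum and omasum held 10 and 8 such barcodes and were not ranked. The AD values were 146 CPM (142 to 151) in duodenum, 433 CPM (426 to 440) in jejunum, 60.4 CPM (57.5 to 63.4) in cecum and 51.6 CPM (49.0 to 54.2) in colon. Each AD tissue was below its NB counterpart, with AD over NB ratios of 0.166, 0.406, 0.126 and 0.327.

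For the background, all genes of 10 CPM or more at either stage were called when the stages differed 2-fold or more on the log2(CPM + 5) scale, which understates the change of low genes. Among PTPRC barcodes of the duodenum 16.8% of genes were called higher in AD and 13.9% in NB. The shares were 8.94% and 6.42% for jejunum, 12.2% and 15.3% for cecum and 11.4% and 11.7% for colon, and the median of all genes was shifted toward AD by 0.23, 0.20, 0.15 and 0.03 log2. FCGRT was called higher in NB in all 4 tissues, with log2 differences of -2.55, -1.29, -2.89 and -1.52.

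The makeup of the PTPRC barcodes moved with these values. The T cell gene CD3E was found in 6.67%, 7.58%, 27.3% and 37.5% of NB PTPRC barcodes in duodenum, jejunum, cecum and colon, and in 82.2%, 50.8%, 93.2% and 94.7% of the AD ones. In barcodes with the macrophage genes CSF1R or CD163 and without CD3E, a subset chosen after the class values were seen, FCGRT was 1454 CPM (1407 to 1503) in NB and 1379 CPM (1319 to 1441) in AD duodenum. These intervals overlapped, with a ratio of 0.948 (0.897 to 1.002). In cecum the same barcodes had 1102 CPM in NB and 1080 CPM in AD (ratio 0.980), and in colon 961 CPM and 931 CPM (ratio 0.969), again with overlap. In jejunum they had 1369 CPM (1347 to 1392) in NB and 1159 CPM (1136 to 1181) in AD, a ratio of 0.846 (0.825 to 0.868).

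In CD3E barcodes without CD14, CSF1R or CD163, FCGRT was low at both stages. It was 53.5, 52.1, 87.7 and 53.4 CPM in NB duodenum, jejunum, cecum and colon, and 59.5, 67.7, 39.6 and 23.7 CPM in AD. Macrophage-marked barcodes thus had FCGRT levels more than 10 times those of T cell barcodes in each of these 8 libraries. Within the macrophage subset the stages differed by at most 1.18-fold. In the T cell subset NB was higher in cecum (87.7 against 39.6 CPM) and colon (53.4 against 23.7 CPM). The T cell values lay closer together in duodenum (59.5 CPM in AD, 53.5 CPM in NB) and jejunum (67.7 CPM in AD, 52.1 CPM in NB). No intervals are given for the T cell subset, so no direction is read from duodenum and jejunum. The part of makeup in the difference over all PTPRC barcodes was not tested. Barcodes with FLT3, a dendritic cell receptor, had between 252 and 496 CPM in the 11 libraries with 20 or more of them. Barcodes with the B cell gene MS4A1 had 21.0 CPM (18.6 to 23.7) in NB ileum, where 1776 of 2300 PTPRC barcodes carried it.

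**Figure D1:**
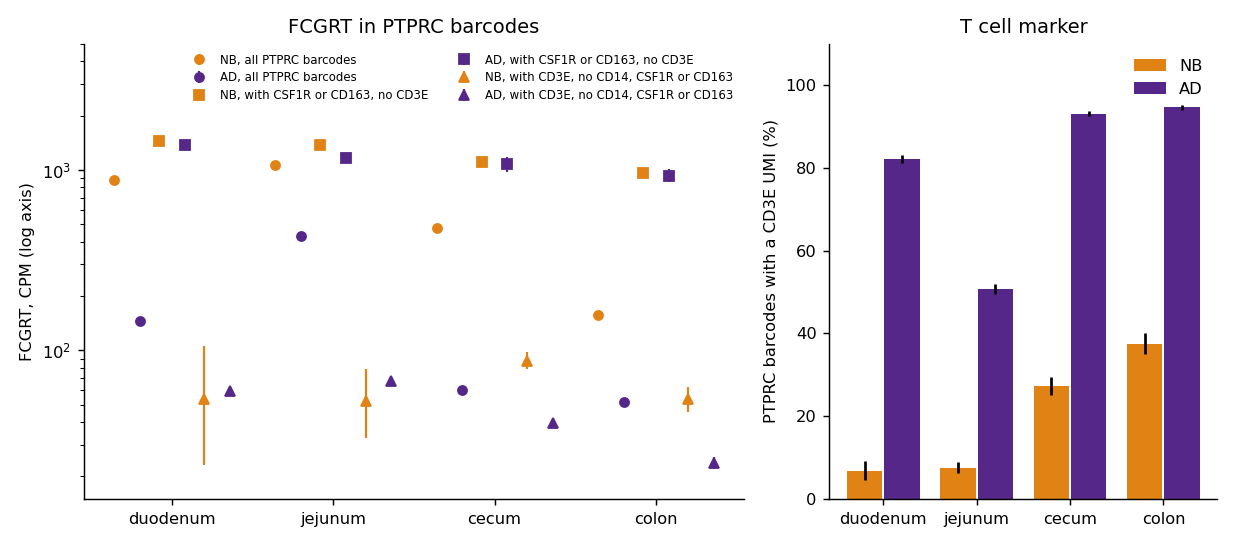
FCGRT in PTPRC barcodes of the 4 tissues measured at both stages. Left, CPM on a log axis with 95% Poisson intervals for all PTPRC barcodes (circles), CSF1R or CD163 barcodes without CD3E (squares) and CD3E barcodes without CD14, CSF1R or CD163 (triangles), NB in orange and AD in purple; right, the percent of PTPRC barcodes with a CD3E UMI. The circles differ between stages, from 878 to 146 CPM in duodenum, while the squares lie between 931 and 1454 CPM at both stages.

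In the EPCAM barcodes the direction between stages depended on the tissue. FCGRT was lower in AD jejunum with 279 CPM (252 to 308) against 518 CPM in NB, and in AD colon with 313 CPM (288 to 340) against 414 CPM. It was higher in AD cecum, with 469 CPM (447 to 491) against 375 CPM, a ratio of 1.25 (1.17 to 1.34). That direction in cecum was lost with mitochondrial UMIs under 10% (log2 0.06, with overlap) and turned with EPCAM taken whatever the other markers (log2 -0.19). Among EPCAM barcodes with KRT8 the same directions were found, with 521 CPM in NB and 292 CPM in AD jejunum, 359 and 484 CPM in cecum, and 438 and 323 CPM in colon. FCGRT in the FABP2 and SPINK4 subsets is not compared between stages here. The part of epithelial makeup in these differences was not tested. AD duodenum EPCAM barcodes had 12 FCGRT UMIs in 28 barcodes, 89.2 CPM (46.1 to 156). In PECAM1 barcodes the AD values were 67.8 CPM (53.8 to 84.3) in duodenum, 278 CPM (240 to 321) in jejunum, 207 CPM (152 to 274) in cecum and 351 CPM (297 to 411) in colon, all below NB. In the 24 AD colon barcodes with both PECAM1 and CDH5 the value was 512 CPM (409 to 634), against 696 CPM (637 to 760) in NB colon. By separate intervals, NB was higher in 11 of 12 comparisons over the 3 classes and 4 tissues, and AD in 1. The share of all genes with separate intervals is not given. By the 2-fold call used for all genes, FCGRT was not called in EPCAM barcodes of jejunum (log2 -0.88), cecum (0.32) or colon (-0.40). Nor was it in PECAM1 barcodes of colon (-0.91), and the others were called higher in NB. Of the 11, 4 rest on AD PECAM1 barcodes and 1 on AD duodenum EPCAM barcodes, which went against their names.

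The 2-fold calls of all genes, a criterion other than separate intervals, differed by class. In EPCAM barcodes 17.9% of genes were called higher in AD and 7.66% in NB for jejunum, 7.03% and 9.77% for cecum, and 17.4% and 4.38% for colon, with medians of all genes shifted toward AD by 0.36, 0.13 and 0.39 log2. For the duodenum the shares were 22.4% and 30.5%, with a median of -0.10 log2. In PECAM1 barcodes far more genes were called higher in NB than in AD, with 57.2% and 5.23% for duodenum, 40.7% and 6.98% for jejunum, 30% and 6.3% for cecum, and 18.7% and 4.67% for colon. The medians there were -1.17, -0.77, -0.50 and -0.35 log2, against FCGRT differences of -3.17, -1.39, -1.36 and -0.91. FCGRT was thus lower in AD than the median gene in all 4, and CDH5 was in a smaller share of the AD than of the NB PECAM1 barcodes in each.

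**Figure D2:**
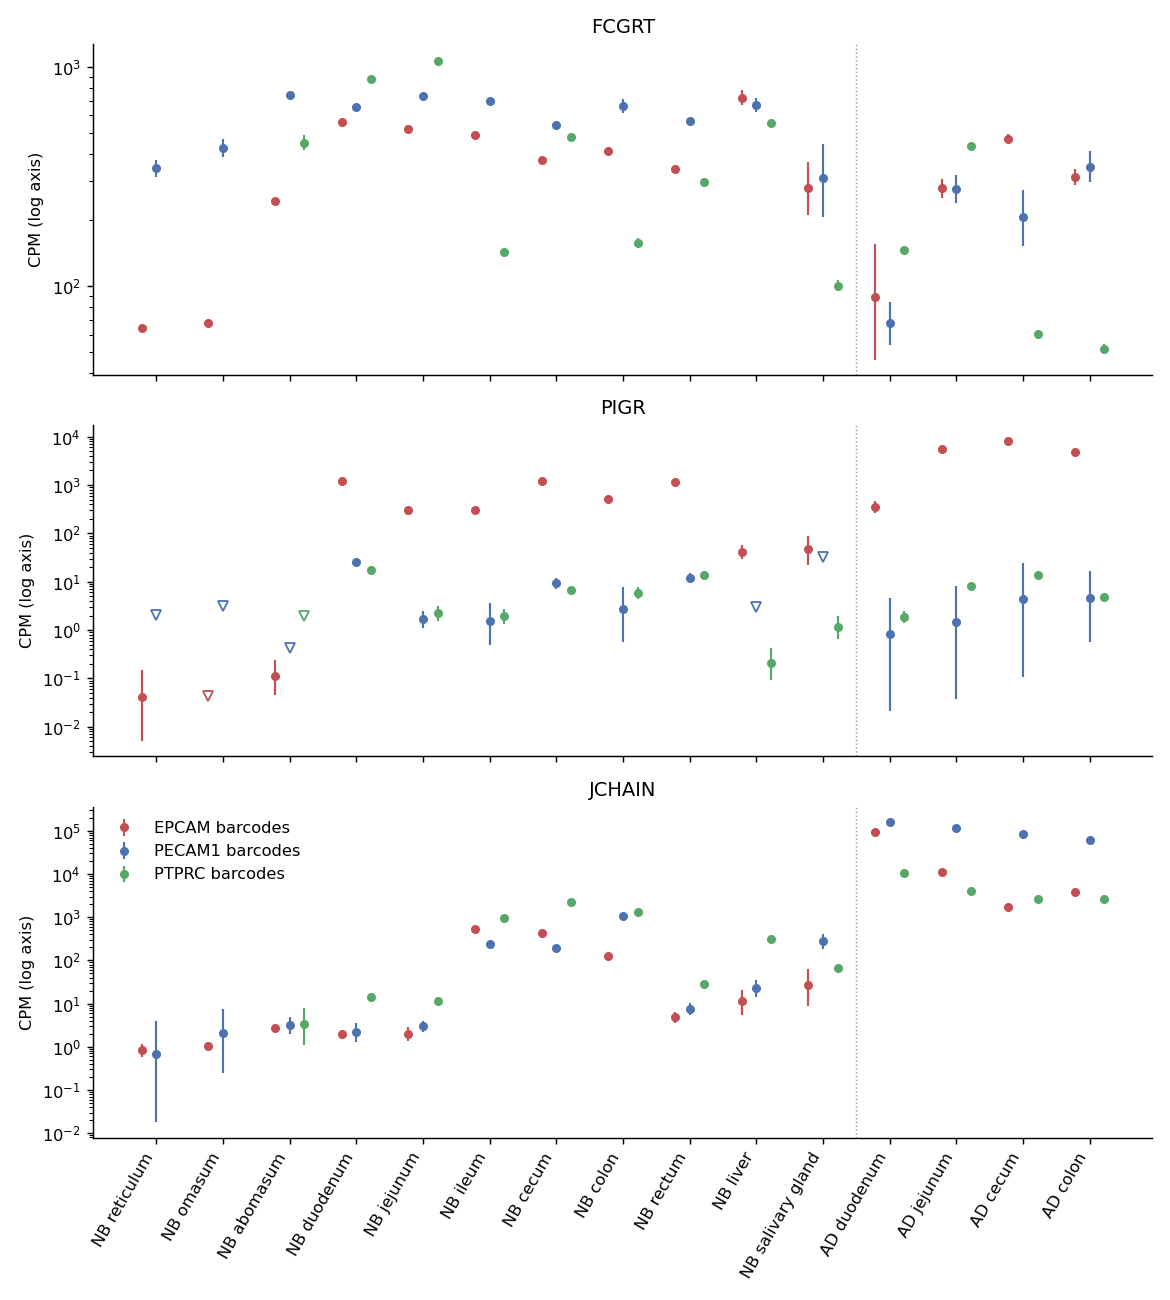
Levels of FCGRT, PIGR and JCHAIN in CPM (log axes) in EPCAM (red), PECAM1 (blue) and PTPRC (green) barcodes of each library, with NB left and AD right of the dotted line. Vertical lines are 95% Poisson intervals, open triangles mark classes with 0 UMIs at the limit that 3 counts would give, and classes under 20 barcodes are not drawn. PIGR is separated by lineage in the intestine, and JCHAIN spans from under 1 CPM to 163489 CPM.

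PIGR was an intestinal epithelial gene in these libraries. EPCAM barcodes held between 89.7% and 96.7% of all PIGR UMIs in the gut libraries from duodenum to rectum other than AD duodenum, where they held 30.8%. EPCAM barcodes had the highest PIGR level with a separate interval in 12 of 15 libraries.

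The stomachs had almost none. NB omasum had 0 PIGR UMIs in 6564 EPCAM barcodes, which allows up to 0.0524 CPM. NB reticulum had 2 UMIs (0.0414 CPM, 0.00502 to 0.150) and NB abomasum had 7 UMIs (0.114 CPM, 0.0459 to 0.235). CYM, the calf milk-clotting enzyme, was in 4604 of 4604 EPCAM barcodes of NB abomasum. UMIs in droplets include free RNA, so this share alone does not identify the cells. PIGR appeared at the duodenum with 1192 CPM (1181 to 1203). It was 308 CPM (299 to 318) in NB jejunum and 305 CPM (292 to 319) in NB ileum, which overlapped. It was 1206 CPM (1174 to 1239) in NB cecum, 509 CPM (495 to 523) in NB colon and 1155 CPM (1133 to 1176) in NB rectum. Duodenum and cecum overlapped as the NB tissues with the highest levels, and cecum and rectum overlapped by a narrow margin. NB liver had 37 UMIs in 141 EPCAM barcodes, 41.7 CPM (29.3 to 57.4), and NB salivary gland 9 UMIs in 31 barcodes, 47.6 CPM (21.8 to 90.4).

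By share of barcodes the order of the NB intestinal tissues differed, and cecum was no longer level with duodenum. After thinning to 2000 UMIs, PIGR was in 62.1% of NB duodenum, 28.5% of jejunum, 26.7% of ileum, 45.6% of cecum, 40.5% of colon and 52.7% of rectum EPCAM barcodes. Before thinning the shares were 77.5%, 42.3%, 43.6%, 58.3%, 59.5% and 65.7%. T cell barcodes, which should lack PIGR, gave the reference level. CD3E barcodes of the PTPRC class had between 2.05 and 13.2 CPM of PIGR in the NB intestinal libraries and between 1.80 and 13.3 CPM in the AD ones. After thinning, at most 3.45% of them had a PIGR UMI in NB and at most 2.23% in AD, and unthinned at most 9.03% and 3.64%, at median depths of 3225 to 7185 UMIs across the stages against 7910 to 12495 in the NB intestinal EPCAM barcodes. The NB intestinal EPCAM levels were all far above this reference.

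Dividing epithelial barcodes carried PIGR as well. EPCAM barcodes with MKI67, a proliferation gene, had 1780 CPM (1744 to 1815) in NB duodenum against 1192 CPM over all EPCAM barcodes, and 505 CPM (482 to 530) against 308 CPM in NB jejunum. In NB ileum the value was 309 CPM (287 to 333), which overlapped the class value. In NB rectum it was 1601 CPM (1516 to 1690) and in NB colon 602 CPM (564 to 643). Goblet-marked SPINK4 barcodes had 935 CPM (911 to 959) in NB duodenum and 181 CPM (167 to 195) in NB jejunum, below the FABP2 barcodes with 1209 CPM (1198 to 1221) and 325 CPM (314 to 336). In NB ileum the FABP2 barcodes had 585 CPM (555 to 617) and the SPINK4 barcodes 214 CPM (197 to 232).

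AD epithelium had several times more PIGR in the jejunum, cecum and colon. The level was 5541 CPM (5420 to 5664) in AD jejunum, 8331 CPM (8238 to 8425) in AD cecum and 4869 CPM (4768 to 4972) in AD colon. The ratios of AD to NB were 18.0 (17.3 to 18.7), 6.91 (6.71 to 7.11) and 9.57 (9.24 to 9.91). These barcodes numbered 170, 305 and 175 in AD and 1139, 408 and 851 in NB. After thinning the shares with a PIGR UMI were 81.1% in AD jejunum, 88.5% in AD cecum and 74.3% in AD colon, each above its NB value, and unthinned they were 81.8%, 87.9% and 73.7%, at median depths of 7698, 13350 and 11318 UMIs. The difference was therefore seen both in the summed level and in the share of barcodes.

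Among KRT8 barcodes, which leave out EPCAM barcodes without this keratin, the ratios were 18.8 (18.1 to 19.6) in jejunum, 5.97 (5.79 to 6.14) in cecum and 9.78 (9.44 to 10.1) in colon. FABP2 barcodes had 325 CPM in NB jejunum and 7528 CPM in AD jejunum, a ratio of 23.2 (22.1 to 24.3) with 31 AD barcodes, and 644 and 4999 CPM in colon, a ratio of 7.76 (7.30 to 8.27). SPINK4 barcodes had 1287 CPM in NB and 7805 CPM in AD cecum, a ratio of 6.07 (5.65 to 6.52), and 516 and 7121 CPM in colon, a ratio of 13.8 (13.1 to 14.5) with 29 AD barcodes. AD levels were thus higher in the enterocyte-marked and in the goblet-marked barcodes wherever both stages had 20 or more.

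**Figure D3:**
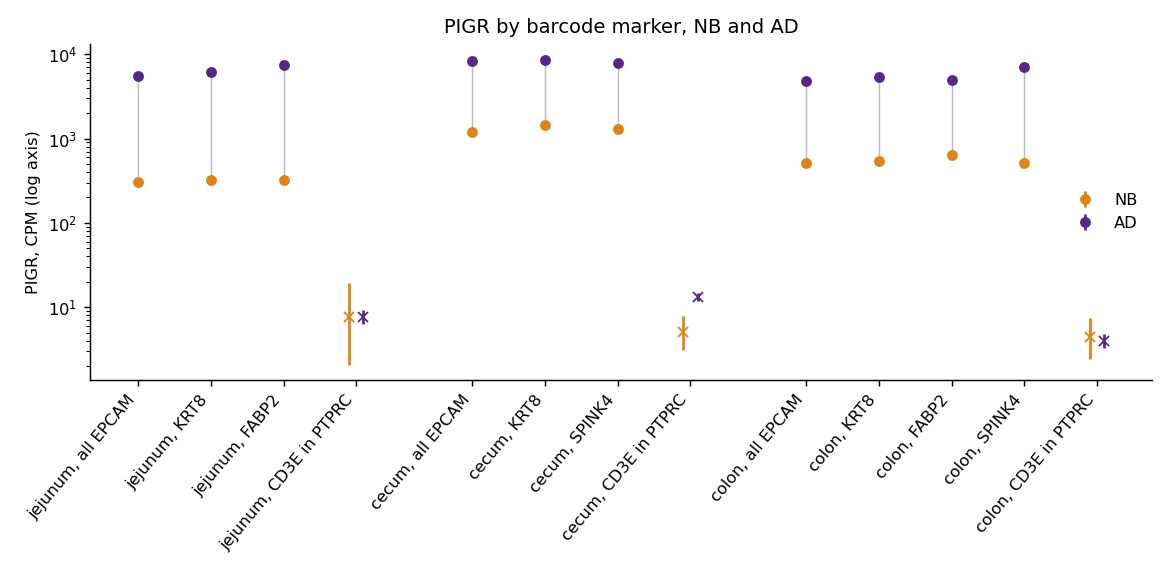
PIGR in EPCAM barcodes of jejunum, cecum and colon, in all EPCAM barcodes and in those with KRT8, FABP2 or SPINK4, as CPM on a log axis with 95% Poisson intervals. NB is orange, AD is purple, and crosses are CD3E barcodes of the PTPRC class, which should lack the gene. Every AD subset lies above the NB one, with 7528 against 325 CPM in FABP2 barcodes of jejunum, and the crosses lie at or under 13.3 CPM.

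AD duodenum was the exception, with 48 PIGR UMIs in 28 EPCAM barcodes, 357 CPM (263 to 473), a ratio of 0.299 (0.221 to 0.397) to NB. These are the barcodes in which KRT8 was found in 14.3%, and with doublets left in the log2 ratio was 2.00 in place of -1.74. In PTPRC barcodes PIGR was near the level of T cell barcodes, with 1.86 CPM in AD and 17.4 CPM in NB duodenum, 8.04 and 2.24 CPM in jejunum, 13.6 and 6.65 CPM in cecum, and 4.80 and 5.94 CPM in colon.

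FCGRT and PIGR were found together in epithelium. Among thinned NB EPCAM barcodes, FCGRT was in 66.0% of those with a PIGR UMI and in 42.7% of those without in duodenum, in 72.8% and 55.6% in jejunum, in 75.2% and 35.1% in ileum, in 49.7% and 33.5% in cecum, in 53.4% and 37.6% in colon, and in 44.7% and 41.1% in rectum. In AD the shares were 57.7% and 9.68% in cecum, 44.2% and 15.4% in colon, and 35.8% and 32.1% in jejunum. These are the 9 libraries with 20 or more barcodes of each kind. The share was higher with PIGR in each, by the smallest margins in NB rectum and AD jejunum. Those margins rest on 481 and 431 barcodes in NB rectum and on 120 and 28 in AD jejunum. No intervals are given for these shares and no reference gene was compared. In NB liver the shares were 75.0% of 12 and 69.4% of 121 barcodes, and in AD duodenum the order was the opposite, with 0 of 2 and 9.09% of 22. Barcodes without PIGR include those that lack epithelial markers, and their part in these shares was not tested.

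The receptors and carriers that work with these genes were compared as lists in the EPCAM barcodes of jejunum, cecum and colon, with the same 2-fold call. They are read against the shares and medians of all genes given above. PIGR was called higher in AD in all 3 tissues, and FCGRT was called in none of them in either direction.

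Among the Fc receptors and B2M, 4 of 5 tested genes were higher in AD jejunum. In AD cecum 1 of 4 was higher and in AD colon 1 of 4. The list medians were 1.30, 0.65 and 0.69 log2, and 17.9%, 7.03% and 17.4% of all genes were called higher in AD. In jejunum FCGR1A, FCGR3A and TRIM21 had 2.61, 1.34 and 4.62 CPM in NB. They reached 10 CPM in AD only, so they could only be called higher in AD. In cecum 1 of 4 was higher in NB, FCER1G, the shared Fc receptor signalling chain, with 36.2 CPM in NB and 10.3 CPM in AD (log2 difference -1.43). B2M was called in all 3 tissues, and remained 2-fold or more above the median gene in each. It had 3997 CPM in NB and 13660 CPM in AD jejunum (log2 difference 1.77), 1704 and 5835 CPM in cecum (1.77), and 666 and 10897 CPM in colon (4.02). The heavy chain FCGRT was lower in AD in 2 of these tissues while its light chain was higher in all 3. FCGR3A and FCGR1A, receptors of leukocytes, were among the genes called in jejunum. In the same barcodes 5 of 11 plasma cell genes were called higher in AD and 1 (FKBP11, log2 difference -1.03) in NB. The median was 0.97 log2, where 17.9% and 7.66% of all genes were called. Of the 5, MZB1, TNFRSF17, IRF4 and POU2AF1 reached 10 CPM in AD only, so they could only be called higher in AD.

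Of the genes for vesicle transport of antibodies, RAB25, a small GTPase of apical recycling, and VPS35, a retromer subunit, were called higher in AD jejunum, and RAB11FIP5, a RAB11 partner, was lower there (log2 difference -1.63). RAB25 had 41.6 CPM in NB and 93.0 CPM in AD jejunum, and VPS35 had 50.7 and 144 CPM. RAB11FIP5 had 12.7 CPM in NB and 0.694 CPM in AD jejunum, the latter on 1 UMI. It reached 10 CPM in NB only, so it could only be called lower in AD. RAB25 and VPS35 were not called in cecum or colon, and RAB11FIP5 was under 10 CPM there at both stages.

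Of the receptors and factors known to raise PIGR, 3 of 11 were higher in AD jejunum, 0 of 12 in cecum and 5 of 12 in colon. None was higher in NB. Of the 5 in colon, IL1R1 reached 10 CPM in AD only, so it could only be called higher in AD. Of all genes 17.9%, 7.03% and 17.4% were called higher in AD. The list medians were 0.65, 0.09 and 0.95 log2, against 0.36, 0.13 and 0.39 log2 for all genes. IRF1, an interferon-responsive transcription factor, had 87.6 CPM in NB and 244 CPM in AD jejunum, 65.2 and 49.4 CPM in cecum, and 33.0 and 177 CPM in colon. NFKB1 had 12.5 and 36.8 CPM in jejunum, 28.4 and 28.5 CPM in cecum, and 16.7 and 39.4 CPM in colon. In cecum 7.03% of all genes were called higher in AD, so 0 of 12 was near that share. Whether these factors bear on the PIGR level was not tested. Of the IgA support genes, TNFSF13, a plasma cell survival factor, was higher in AD in all 3 tissues. It had 1.27 and 20.1 CPM in jejunum, 1.37 and 45.4 CPM in cecum, and 0.932 and 13.3 CPM in colon. In jejunum it was the only tested gene of the 7 listed. In cecum CCL28, a chemokine that attracts IgA cells, was also higher in AD and TGFB1 was lower. TNFSF13 reached 10 CPM only in AD in all 3 tissues. In cecum CCL28 and TGFB1 reached it only at the stage where they were higher. The calls of these genes could therefore go only 1 way.

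JCHAIN had the widest range of the 3 genes. Over all kept barcodes it was 0.886 CPM (0.676 to 1.14) in NB reticulum, 1.12 CPM (0.912 to 1.36) in omasum, 3.26 CPM (2.88 to 3.67) in abomasum, 3.40 CPM (2.96 to 3.89) in duodenum, 6.39 CPM (5.83 to 6.99) in jejunum and 12.3 CPM (11.4 to 13.4) in rectum. Higher NB levels were found in salivary gland with 146 CPM (140 to 152), liver with 385 CPM (380 to 390), ileum with 1259 CPM (1248 to 1270), colon with 1302 CPM (1290 to 1315) and cecum with 2064 CPM (2052 to 2076). The AD libraries had 34255 CPM (34198 to 34313) in duodenum, 14406 CPM (14372 to 14439) in jejunum, 7411 CPM (7384 to 7439) in cecum and 8006 CPM (7978 to 8035) in colon. In NB intestine the levels of duodenum, jejunum and rectum were thus far below those of ileum, cecum and colon.

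Few barcodes held most of it. Barcodes in which JCHAIN made up 1% or more of all UMIs, a limit set after the data were seen, were 393 of 7034 in NB ileum (5.59%, 5.06 to 6.15), 123 of 5767 in NB cecum (2.13%, 1.78 to 2.54), 149 of 4428 in NB colon (3.36%, 2.85 to 3.94), 37 of 11423 in NB liver (0.324%, 0.228 to 0.446) and 3 of 2636 in NB salivary gland. There were 0 in NB reticulum, omasum, abomasum, duodenum, jejunum and rectum, which allows shares of up to 0.0318% in jejunum and 0.0540% in rectum. The AD libraries had 746 of 9506 in duodenum (7.85%, 7.31 to 8.41), 457 of 9997 in jejunum (4.57%, 4.17 to 5.00), 172 of 8665 in cecum (1.99%) and 196 of 8521 in colon (2.30%, 1.99 to 2.64). In cecum the NB and AD shares overlapped, and in colon the NB share was the higher one at this limit. With the limit at 0.5% the counts were 513 in NB ileum, 125 in NB cecum and 178 in NB colon, and with 2% they were 232, 107 and 108. In AD they were 766 and 716 in duodenum, 188 and 149 in cecum, and 206 and 177 in colon. In colon the NB share stayed above the AD one at 0.5% (4.02%, 3.46 to 4.64, against 2.42%, 2.10 to 2.77), whereas at 2% the shares overlapped (2.44%, 2.00 to 2.94, against 2.08%, 1.79 to 2.40).

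These JCHAIN-rich barcodes carried genes of antibody-secreting cells, together with genes shared with B cells. MZB1, an endoplasmic reticulum cofactor of antibody assembly, was found in between 87.2% and 100% of them, against at most 21.5% of the remaining barcodes in any of the libraries that had them. TNFRSF17, the survival receptor of plasma cells, was in 53.7% of them in NB ileum, 73.8% in NB colon, 83.7% in NB cecum, 94.6% of the 37 in NB liver, all 3 in NB salivary gland and between 91.2% and 93.6% in AD. MS4A1 was in 59.0% of them in NB ileum and 53.7% in NB colon, against 13.0% in NB cecum, 10.8% in NB liver and between 21.9% and 41.9% in AD, and it was also in 57.2% of the remaining barcodes of NB ileum and 23.1% of those of NB colon. CD79A, a chain of the B cell receptor complex, was in 93.9% of them in NB ileum, 91.9% in NB colon, 88.6% in NB cecum, 91.9% in NB liver and between 54.6% and 80.2% in AD. In NB ileum more of them thus carried MS4A1 than TNFRSF17, at a share close to that of the remaining barcodes. These shares were not thinned, and the part of depth in them was not tested. JCHAIN-rich barcodes had median depths of 3606 UMIs in NB ileum and 5228 in NB colon. In NB cecum, NB liver and AD these barcodes had 13056, 15188 and between 9389 and 11420 UMIs. The JCHAIN share of their UMIs had a median of 2.22% in NB ileum, 3.09% in NB colon, 3.48% in NB liver and 5.31% in NB cecum, against 13.3% in AD cecum, 13.3% in AD colon, 16.4% in AD jejunum and 18.2% in AD duodenum. The AD medians thus lay above every NB one, and this was the case also in cecum and colon, where AD had no larger share of such barcodes.

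**Figure D4:**
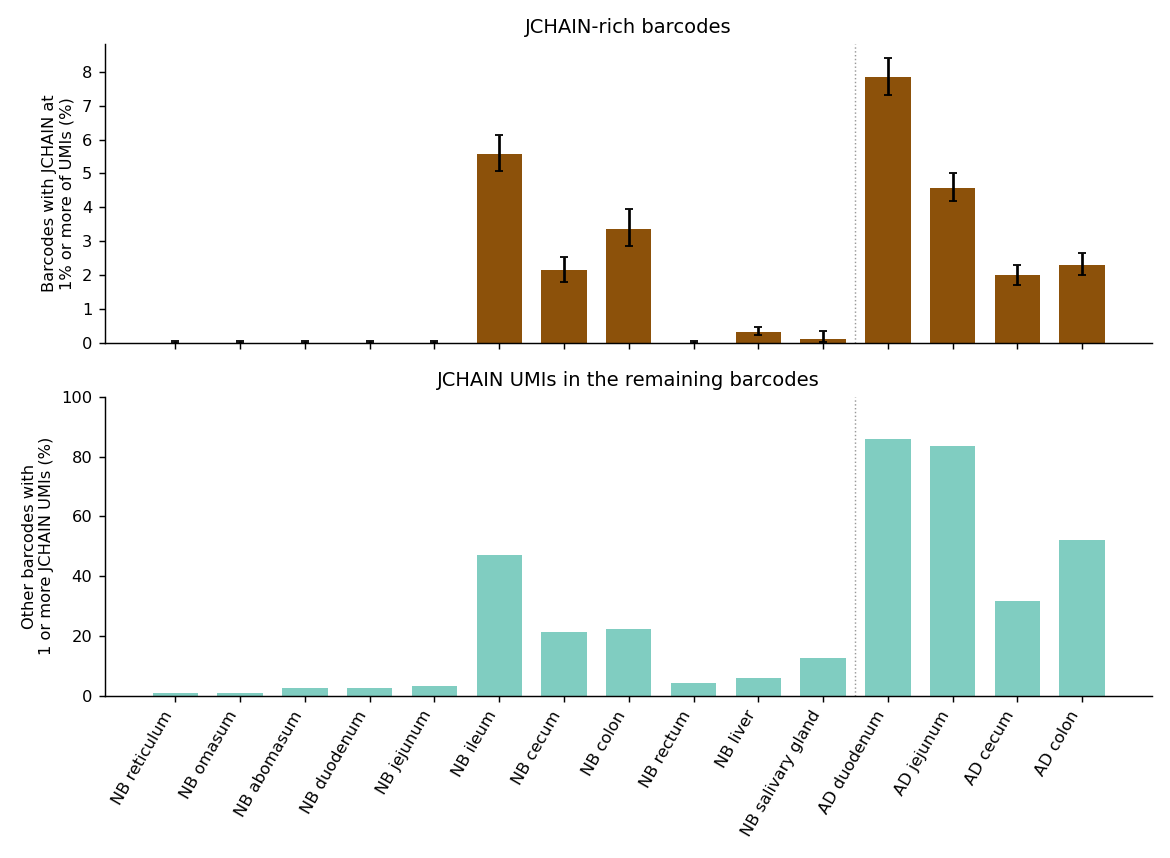
Barcodes with JCHAIN at 1% or more of their UMIs, by library, as bars of their percent of kept barcodes with 95% Clopper-Pearson intervals, and the percent of all remaining barcodes with a JCHAIN UMI. Bars are absent in 6 NB libraries, reach 5.59% in NB ileum and 7.85% in AD duodenum, and 86.0% of the remaining AD duodenum barcodes had a JCHAIN UMI.

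JCHAIN was also higher in AD among barcodes of any class with MZB1, which include barcodes that are not JCHAIN-rich. Outside the JCHAIN-rich barcodes MZB1 was in 7.24% of NB colon and 1.99% of AD colon barcodes. The part of this mix in the values below was not tested. JCHAIN in MZB1 barcodes was 36549 CPM in NB cecum and 85788 CPM in AD cecum, a ratio of 2.35 (2.33 to 2.36), and 9443 and 94524 CPM in colon, a ratio of 10.0 (9.90 to 10.1). In jejunum the 23 NB barcodes with MZB1 had 141 CPM (87.4 to 216) and the 794 AD ones 107808 CPM. In NB ileum 1780 barcodes carried MZB1 and had 3491 CPM (3460 to 3523), in NB liver 103 had 23773 CPM (23474 to 24074), and in NB rectum 31 had 17.7 CPM (5.75 to 41.4). The MZB1 barcodes of NB jejunum and rectum thus had little JCHAIN.

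The 3 surface markers did not mark these cells well. PTPRC was detected in 21.7% to 54.1% of the JCHAIN-rich barcodes in libraries with more than 3 of them, and between 45.9% and 68.7% had none of the 3 markers. In AD 6.98% to 16.2% of them had a PECAM1 UMI, and 5.23% to 11.8% fell in the PECAM1 class. This is the class with the highest JCHAIN level in AD duodenum (163489 CPM), jejunum (113909 CPM), cecum (84402 CPM) and colon (62469 CPM), in which CDH5 was in a smaller share of barcodes than in the NB gut. In the 24 AD colon barcodes with PECAM1 and CDH5, JCHAIN was 211 CPM (147 to 293). Barcodes without any of the 3 markers had 88493, 42330, 40246 and 39253 CPM in AD duodenum, jejunum, cecum and colon, and 2377 CPM in NB ileum, 3885 CPM in cecum, 2928 CPM in colon and 1375 CPM in liver.

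In PTPRC barcodes JCHAIN was 14.1 CPM (10.9 to 18.0) in NB and 10801 CPM (10762 to 10840) in AD duodenum, a ratio of 765 (600 to 991), and 11.3 CPM (9.59 to 13.1) and 4111 CPM (4090 to 4132) in jejunum, a ratio of 365 (313 to 429). In cecum the values were 2232 CPM (2210 to 2253) and 2699 CPM (2679 to 2719), a ratio of 1.21, and in colon 1346 CPM (1323 to 1370) and 2628 CPM (2609 to 2647), a ratio of 1.95 (1.92 to 1.99). The stage difference was thus far larger in duodenum and jejunum than in cecum and colon. In cecum and colon the mean of CPM per barcode gave the opposite direction (log2 -0.94 and -0.34). AD ileum and rectum were not among these libraries, and NB PTPRC barcodes had 958 CPM in ileum and 28.3 CPM in rectum. Of 10 tested plasma cell genes in PTPRC barcodes of duodenum, 7 were called higher in AD and 0 in NB, with a median of 1.36 log2, where 16.8% and 13.9% of all genes were called. In jejunum 3 were higher in AD and 0 in NB (median 0.81), against 8.94% and 6.42% of all genes. Colon had 2 higher in AD and 4 in NB (median -0.82), against 11.4% and 11.7%, and cecum 1 and 3 (median -0.33), against 12.2% and 15.3%. MZB1, TNFRSF17 and POU2AF1, the 3 genes called in jejunum, reached 10 CPM there in AD only. The same held for these 3 and XBP1 in duodenum, and for XBP1 in colon. Such genes could only be called higher in AD, so the counts of duodenum and jejunum lean that way in part by the filter. With that limit, more genes were called higher in AD in duodenum and jejunum. More were called higher in NB in cecum and colon, where JCHAIN itself was higher in AD by summed CPM.

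JCHAIN UMIs were widespread beyond these cells in AD, and in droplets such UMIs include free RNA. Outside the JCHAIN-rich barcodes a JCHAIN UMI was found in 86.0% of AD duodenum, 83.5% of jejunum, 31.7% of cecum and 52.0% of colon barcodes, and in 47.0% of NB ileum, 21.4% of cecum and 22.3% of colon barcodes. In CD3E barcodes without MZB1, JCHAIN was 650, 458, 120 and 228 CPM in AD duodenum, jejunum, cecum and colon. EPCAM barcodes had 92475 CPM in AD duodenum, 11381 CPM in jejunum, 1751 CPM in cecum and 3942 CPM in colon. In EPCAM barcodes with KRT8 the values were 2037 CPM in jejunum, 46.2 CPM in cecum and 63.7 CPM in colon. Cecum and colon were thus below the level in CD3E barcodes of the same library, and jejunum was above it. By separate intervals of summed CPM, JCHAIN was higher in AD in all 12 comparisons of class and tissue. The share of all genes with separate intervals is not given. In PTPRC barcodes the log2 difference was 0.27 in cecum, near the median of all genes (0.15), and 0.96 in colon. JCHAIN was not called at 2-fold in these PTPRC barcodes. The EPCAM barcodes of cecum turned to lower in AD (log2 -1.97) when another epithelial marker was also required, and the PTPRC barcodes of cecum and colon turned by mean CPM per barcode, as given above. Of the 12, 4 rest on PECAM1 barcodes and 1 on the EPCAM barcodes of AD duodenum, all with many plasma cell marker UMIs. The part of free RNA and of antibody-secreting cells in the EPCAM values was not tested beyond these subsets.

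The genes whose levels were most like those of each gene were found by Pearson correlation of log2(CPM + 5) over 43 pools of library and class and 10663 genes, as a description. Pools of a library share its depth and its free RNA. FCGRT was nearest to CD63, a lysosomal membrane protein, with r = 0.90, then SLC12A7 (0.85), SH3BGRL (0.82), LRP5 (0.82) and DPYD (0.81). PIGR was nearest to CDHR2, a brush border cadherin, CDX1, an intestinal transcription factor, PPP1R14D, ADGRG7 and B3GNT6, each with r = 0.95, but none of these 5 was among its nearest 5 by Spearman correlation. JCHAIN was nearest to a gene without a symbol (ENSBTAG00000047121) with r = 0.96, to MZB1 (0.95), to 2 others without a symbol (ENSBTAG00000047700 with 0.94 and ENSBTAG00000001219 with 0.91) and to TNFRSF17 (0.90).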

How the data were processed

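The 15 libraries were made by 10x 3' chemistry, and reads were counted by the authors with Cell Ranger 3.1.0 against ARS-UCD1.2; the annotation release is not given in the sources used here. The deposited values were UMI counts per gene and barcode, and 0 columns lacked a sample. Following the limits of the study, barcodes were kept with 500 to 4000 genes, a total below 50000 UMIs, and a mitochondrial share below 40%. Doublets, removed in the study by another tool, were called here with Scrublet-type scores at 0.8% per 1000 barcodes.

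Python 3.11.15, NumPy 2.4.6, SciPy 1.17.1 and R 4.3.3 with edgeR 4.0.16 (normalization factors only) were used. Classes with 20 or more barcodes were compared, and shares were also computed after thinning to 2000 UMIs. A floor of 3 counts was used where a gene had 0 UMIs. Genes were called across a table at 2-fold with a pseudocount of 5 CPM and 10 CPM or more at either stage; these calls carry no test. The calling and likeness steps were tested on simulated data with known answers.

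The 3 genes were named in every library; of the lists, counts and the extremes were given. The genes and lists were chosen with earlier results of these data known. Combined marker subsets, SPINK4 for MUC2, and KRT8 alone as the epithelial marker were chosen after seeing the data. Of the list genes, 2 were not in the gene list. The RefSeq table of another assembly was used for names only, so no coordinates are given. A result of the vesicle transport list is not reported here.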

Additional observations from a re-analysis of the deposited data

Results flagged for a closer look

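FCGRT in EPCAM barcodes was higher in AD cecum (log2 AD over NB 0.32) and lower in AD duodenum, jejunum and colon; the direction in cecum was opposite to the others, but it was lost with mitochondrial UMIs under 10% (0.06) and turned with the marker whatever the other two (-0.19), and this difference was not tested. PIGR in EPCAM barcodes was lower in AD duodenum (log2 AD over NB -1.74), on 28 AD barcodes, and higher in AD jejunum, cecum and colon; this difference was not tested. PIGR in PTPRC barcodes was lower in AD duodenum (log2 AD over NB -3.23) and higher in AD jejunum and cecum, at levels near those of T cell barcodes; this difference was not tested.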

How the results depend on the processing

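No paired analysis over the 4 tissues measured at both stages was run. All AD libraries came from the same cow, and stage, animal and dissociation changed together. By separate intervals in 12 tissue and class comparisons, FCGRT was higher in AD in 1. It was so in 0 with mitochondrial UMIs under 10% or with the marker whatever the other markers. PIGR was higher in AD in 5, and in 8 with the marker whatever the other two. Of the 5, 2 were in PTPRC barcodes, at levels near those of T cell barcodes. The share of all genes with separate intervals is not given beside the counts of any of the 3 genes. JCHAIN was higher in AD in 12, in 7 of 8 with another marker of the lineage required, and in 7 of 7 without the AD duodenum EPCAM and AD PECAM1 barcodes, an alternative chosen after seeing the data; by mean CPM per barcode, with rescaled intervals, it was higher in 10 and lower in 2. PTPRC barcodes had the highest JCHAIN in 8 libraries, and in 5 by share after thinning. Directions with separate intervals that turned were PIGR in EPCAM barcodes of duodenum with doublets left in (log2 2.00), JCHAIN in EPCAM barcodes of cecum with another marker of the lineage (-1.97), JCHAIN in PTPRC barcodes of cecum (-0.94) and colon (-0.34) by mean CPM per barcode, and FCGRT in EPCAM barcodes of cecum with the marker whatever the other two (-0.19). Genes past 2-fold, summed over the 12 comparisons, numbered 30375, and 15264 with a pseudocount of 20 CPM; 35.5% of calls were higher in AD, and 43.7% after the median of all genes was subtracted. Of the 5 genes most like each, Spearman correlation kept 2 for FCGRT, 0 for PIGR and 3 for JCHAIN, and NB pools kept 2 for FCGRT and 2 for PIGR. The causes were not tested. The remaining alternatives left these counts within 1.5 times. AD epithelium and endothelium had few barcodes, which limits those values.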
